A study of Mus musculus with 8 samples.

Results

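Interferon-stimulated genes are the transcripts that cells raise when interferon reaches their receptors. They were followed here in 8 primary mammary tumours of transgenic FVB mice, measured on Affymetrix arrays with 1 array per tumour. The module was a list of 39 genes, and each was read by the probe that carried its symbol alone and had the highest mean over the 8 tumours. Of the 39 listed genes, 36 had such a probe among the 22180 genes that did. Oas1a and Gbp2 were read only by probes shared with a second symbol and Ifi44 by no probe under that symbol, so these 3 were not analysed here. Of the 36, 35 also passed the filter on dim genes and entered the test over 16635 genes, and Mx1 did not.

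The first group consisted of 4 tumours labelled NeuNT/H1074R, which carry NeuNT, a form of the ErbB2 receptor tyrosine kinase, together with a mutant p110α, the lipid kinase subunit of PI3K. The second consisted of 4 tumours labelled NeuNT, in which NeuNT is the only modification named. Both groups are on the FVB strain and received no treatment. The mutation is written H1047R in the series title and H1074R in the genotype labels, and the groups are called here by their labels. The replicate numbers 1 to 4 only name the tumours of a genotype in their order of deposit and pair no tumours across genotypes. The labels give neither the promoters that drive the transgenes nor the age of the mice, and do not say whether each tumour came from its own mouse. The p-values therefore measure the spread between these tumours, which may be partly technical. All values are log2 array signals, so a difference is the log2 of a fold change, and a level is compared only within a gene because probes differ in brightness.

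Type I interferons (the interferon alpha family and interferon beta) signal through a receptor made of Ifnar1 and Ifnar2 to a complex that holds Stat2 and Irf9 and binds a promoter sequence called the interferon-stimulated response element (ISRE). Interferon gamma, made mainly by T cells and natural killer cells, signals through Ifngr1 and Ifngr2, and its early targets carry a promoter sequence called the gamma-activated site (GAS). Many targets answer to both, but the Ifit, Oas and Mx genes are best known as antiviral products of type I interferon, and the Gbp and Irgm GTPases, the chemokine Cxcl9 and the peptide transporter Tap1 as products of interferon gamma. The members were set in these 2 classes: 9 measured genes in the type I class and 6 in the interferon gamma class.

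The promoters of the members show the 2 kinds of element. RefSeq (GRCm38.p6) gave a promoter window, from 250 bases before the gene start to 50 after it, for 32 of the 39 members. The ISRE core was searched as GAAA, any 2 bases and GAAA again, and the GAS core as TTCNNNGAA with N for any base, on both strands and with overlapping matches allowed. An ISRE core was found in 17 of the 32 members (53.1%), against 3.99% of the 27025 genes with a window. A GAS core was found in 10 members (31.2%), against 9.55% of all genes, and both cores in 5 members (15.6%), against 0.614%. Both were found in Oas1a, Bst2, Gbp7, Igtp and Irgm2. In the type I class an ISRE core was found in 4 of 7 genes and a GAS core in 2 of 7, and in the interferon gamma class in 5 of 7 and 2 of 7, so the letters alone did not divide the classes. A match is a description of these letters and not a measured binding site. Windows are shown as examples for 6 chosen genes, each with a match: 2 of type I effectors, 3 of GTPases known from interferon gamma and 1 of a chemokine that answers to both. The 3 GTPases shown hold both cores, whereas Gbp2, Gbp3 and Irgm1 had an ISRE core only. Each line gives the 250 bases before the gene start, 5′ to 3′ on the strand of the gene, with matches to either core in capitals.
Ifit1 (chr19:34640639-34640888, plus strand): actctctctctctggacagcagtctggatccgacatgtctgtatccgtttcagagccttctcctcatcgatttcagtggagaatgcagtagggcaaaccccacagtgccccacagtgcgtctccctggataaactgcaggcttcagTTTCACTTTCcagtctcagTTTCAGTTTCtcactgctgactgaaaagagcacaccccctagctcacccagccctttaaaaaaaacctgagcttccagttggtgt
Isg15 (chr4:156200819-156201068, minus strand): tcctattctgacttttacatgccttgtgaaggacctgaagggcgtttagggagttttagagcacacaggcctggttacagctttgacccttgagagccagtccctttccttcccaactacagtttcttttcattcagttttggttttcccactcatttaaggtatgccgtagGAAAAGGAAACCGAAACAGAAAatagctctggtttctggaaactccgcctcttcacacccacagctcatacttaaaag
Gbp7 (chr3:142530086-142530335, plus strand): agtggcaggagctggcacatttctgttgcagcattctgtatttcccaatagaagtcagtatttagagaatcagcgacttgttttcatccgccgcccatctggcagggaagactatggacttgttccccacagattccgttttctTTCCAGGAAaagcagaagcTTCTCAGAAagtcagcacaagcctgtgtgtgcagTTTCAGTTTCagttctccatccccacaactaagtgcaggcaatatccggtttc
Igtp (chr11:58199306-58199555, plus strand): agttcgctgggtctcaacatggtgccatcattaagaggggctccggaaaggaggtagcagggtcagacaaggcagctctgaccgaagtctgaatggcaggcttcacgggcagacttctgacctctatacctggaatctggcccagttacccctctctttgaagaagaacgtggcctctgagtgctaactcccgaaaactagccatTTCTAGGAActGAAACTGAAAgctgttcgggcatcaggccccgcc
Irgm2 (chr11:58214727-58214976, plus strand): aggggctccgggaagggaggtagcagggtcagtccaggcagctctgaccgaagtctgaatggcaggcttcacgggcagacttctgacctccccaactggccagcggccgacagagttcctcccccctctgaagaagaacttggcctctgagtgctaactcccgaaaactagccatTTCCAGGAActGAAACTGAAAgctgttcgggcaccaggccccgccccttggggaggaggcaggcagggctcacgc
Cxcl10 (chr5:92348890-92349139, minus strand): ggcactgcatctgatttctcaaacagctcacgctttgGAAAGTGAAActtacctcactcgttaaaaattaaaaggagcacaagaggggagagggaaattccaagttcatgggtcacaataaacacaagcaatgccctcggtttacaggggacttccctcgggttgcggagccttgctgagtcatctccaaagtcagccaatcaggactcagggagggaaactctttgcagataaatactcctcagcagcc
The Ifit1 window holds 2 ISRE cores, which start 104 and 85 bases before the gene. In Isg15 a run of 3 overlapping ISRE cores starts 78, 72 and 66 bases before it. Gbp7 has GAS cores 106 and 87 bases and an ISRE core 53 bases before the start. In Igtp the GAS core starts 11 bases ahead of the ISRE core, 45 and 34 bases before the gene, and the neighbouring Irgm2 has the same spacing of 11 bases, at 75 and 64. The ISRE match has the same letters in both, and the windows share an unbroken run of 55 bases that lies upstream of the cores; no other pair of the printed windows shares more than 13. In Cxcl10 the ISRE core lies 213 bases before the start. For Cxcl9 and Tap1 neither core was found in the window.

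The module varied widely from tumour to tumour, and no member separated the genotypes. None of the 35 tested members passed the threshold (limma, adjusted p under 0.05), against 0.0% of all 16635 tested genes. At an unadjusted p under 0.05 there was 1 member of 35 (2.86%), against 3.82% of all genes; it was lower in NeuNT/H1074R tumours, as were 1.71% of all genes, while 0 members and 2.11% of all genes were higher. Also, 0 members had genotypes whose values did not overlap, against 2.69% of all genes. Means were higher in NeuNT/H1074R tumours for 20 of 35 tested members (57.1%), against 49.5% of all tested genes. The median log2 difference, NeuNT/H1074R minus NeuNT, was 0.09 for the tested members and 0.00 for all tested genes. By role the means ran in different directions. They were higher in all 4 measured oligoadenylate synthetases and 8 of 9 other type I effectors. They were lower in both guanylate-binding proteins, both chemokines, 3 of 4 immunity-related GTPases and all 3 antigen processing genes. The other roles were mixed: 2 higher and 2 lower transcription factors, 2 and 1 sensors, 2 and 1 Ifit genes, and 1 and 1 Mx genes. Many of these differences were small beside their SE, such as −0.08 ± 0.40 for Tap1 and 0.09 ± 0.41 for Oasl1.

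**Figure D1:**
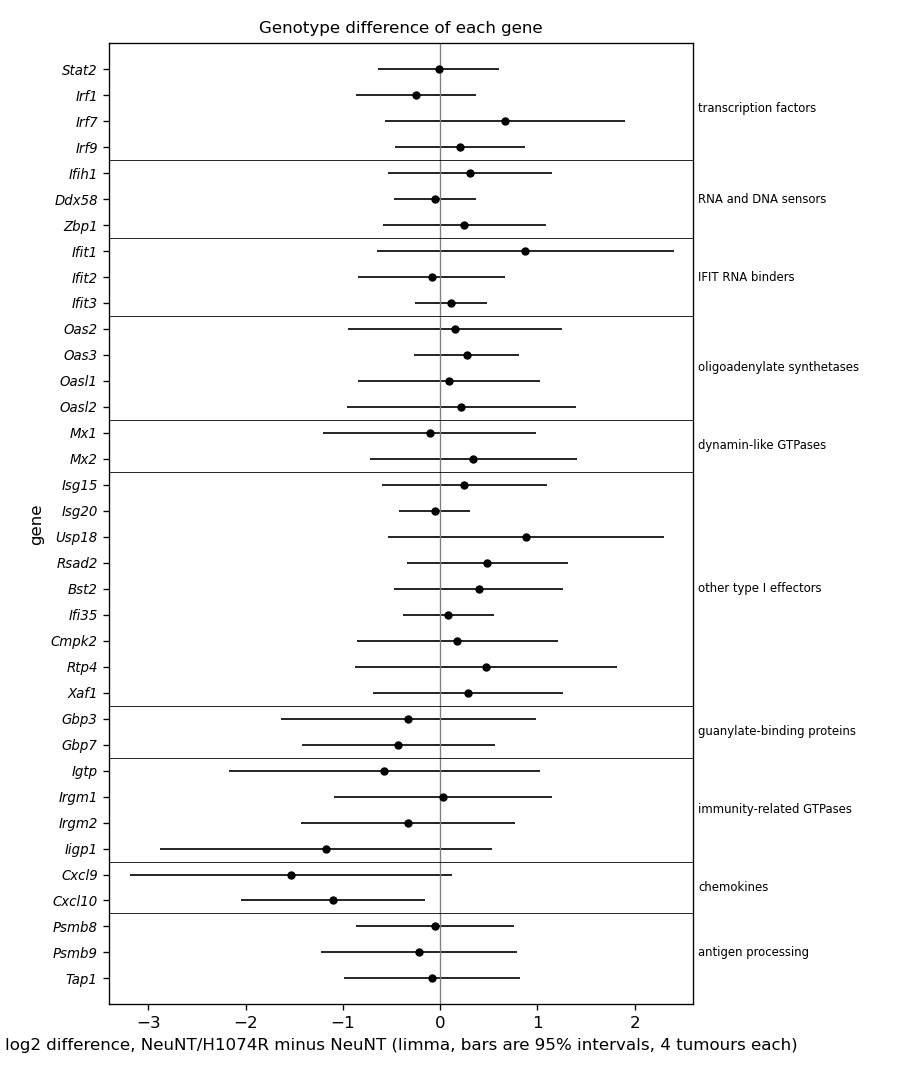
Log2 difference of each measured member between 4 NeuNT/H1074R and 4 NeuNT tumours (x axis, NeuNT/H1074R minus NeuNT), by role; points are limma estimates and bars 95% intervals. The interval of Cxcl10, from −2.05 to −0.16, was the only one without 0, and no adjusted p passed.

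The spread within a genotype was large for these genes. The residual SD between tumours of a genotype had a median of 0.69 on the log2 scale over the 36 measured members, against 0.25 over all tested genes, and 34 of the 36 lay above that value. Isg20 and Ifit3 were the exceptions, at 0.21 and 0.22. From the lowest to the highest tumour the median member spanned a 3.71-fold range, against 1.67-fold for the median of all tested genes. Ranges over 2 log2 units were seen in 16 of the 36 members (44.4%), against 8.08% of all tested genes. The 95% interval of a genotype difference, not adjusted for the number of genes, reached 0.94 to either side for the median member. With 4 tumours a group, the interval of such a gene holds 0 at any smaller difference. Larger ones, such as −1.53 for Cxcl9 and −1.10 for Cxcl10, did not pass the adjusted threshold either.

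NeuNT replicate 1 and NeuNT/H1074R replicate 1 stood at the low end of most genes, and 4 tumours shared the high end. NeuNT replicate 1 was lowest for 21 of the 36 members and among the lowest 2 tumours for 31, and NeuNT/H1074R replicate 1 was lowest for 11 and among the lowest 2 for 26. The highest tumour was NeuNT replicate 3 for 15 members, NeuNT replicate 4 for 9, NeuNT/H1074R replicate 4 for 6 and NeuNT/H1074R replicate 2 for 3. In both genotypes, therefore, 1 tumour had low signals of this module and others had high ones.

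**Figure D2:**
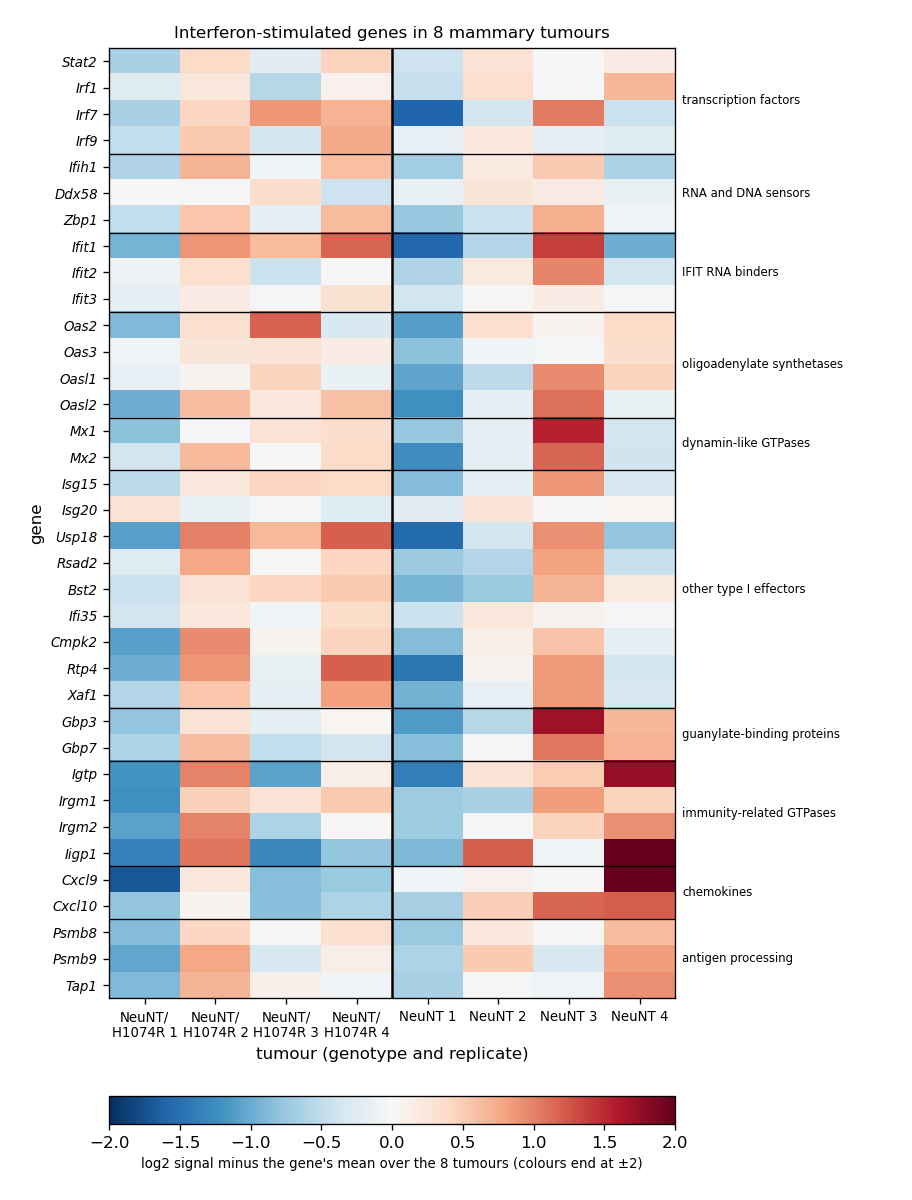
Log2 signal of the 36 measured members (rows, by role) in each tumour (columns), after each gene's mean over the 8 tumours was subtracted; red is above that mean and blue below it. NeuNT/H1074R replicate 1 and NeuNT replicate 1 are blue in most rows, NeuNT replicate 3 is red in most rows, and NeuNT replicate 4 is red mainly in the lower ones.

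The transcription factors of the pathway came first in the order of signalling. Irf7, the factor that amplifies interferon alpha production and is itself induced by type I interferon, had log2 signals of 7.86, 8.93, 9.38 and 9.20 in NeuNT/H1074R replicates 1 to 4, against 6.92, 8.14, 9.55 and 8.09 in NeuNT replicates 1 to 4. NeuNT/H1074R replicate 1 and NeuNT replicate 1 were lowest, and NeuNT replicate 3 was highest. Irf7 differed by 0.67 ± 0.54 (SE) on the log2 scale (limma, adjusted p = 0.978). Irf9, the DNA-binding part of the type I complex, had 8.17, 9.19, 8.30 and 9.42 in NeuNT/H1074R tumours and 8.51, 8.87, 8.47 and 8.42 in NeuNT tumours, with a difference of 0.20 ± 0.29 (SE). Stat2, its partner, ranged from 6.84 to 7.95 in NeuNT/H1074R tumours and 7.07 to 7.78 in NeuNT tumours, a difference of −0.02 ± 0.27 (SE). Irf1, which answers strongly to interferon gamma, differed by −0.25 ± 0.27 (SE), with its highest value of 7.65 in NeuNT replicate 4. None of these 4 passed (limma, adjusted p from 0.978 to 0.998), and in none did the genotypes separate.

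Sensors of foreign nucleic acid, which are induced by interferon as well as triggering it, gave a similar picture. Ifih1, a receptor for long double-stranded RNA, was at 7.26, 8.55, 7.82 and 8.46 in NeuNT/H1074R replicates 1 to 4, against 7.18, 8.05, 8.39 and 7.24 in NeuNT replicates 1 to 4. Its high tumours, NeuNT/H1074R replicates 2 and 4 and NeuNT replicate 3, were the same ones as for Zbp1, a sensor of Z-form nucleic acids that can trigger necroptosis, with 7.37, 8.41, 7.66 and 8.49 in NeuNT/H1074R tumours and 7.11, 7.43, 8.59 and 7.81 in NeuNT tumours. Ddx58, the RIG-I receptor for viral RNA ends, varied less, from 7.40 to 8.16 in NeuNT/H1074R tumours and 7.67 to 8.06 in NeuNT tumours. Differences were 0.31 ± 0.37, 0.25 ± 0.37 and −0.05 ± 0.18 (SE) for Ifih1, Zbp1 and Ddx58 (limma, adjusted p from 0.978 to 0.988).

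The Ifit genes encode proteins that bind viral RNA and hold back its translation. Ifit1 had log2 signals of 6.60, 8.41, 8.15 and 8.68 in NeuNT/H1074R replicates 1 to 4, against 5.95, 6.93, 8.90 and 6.55 in NeuNT replicates 1 to 4. NeuNT/H1074R replicates 2, 3 and 4 and NeuNT replicate 3 were high and the other 4 tumours at least 1 log2 unit lower, so both genotypes had tumours on either side. Means were 7.96 ± 0.93 in NeuNT/H1074R and 7.08 ± 1.28 in NeuNT tumours (SD, n = 4 each), a difference of 0.88 ± 0.67 (SE; limma, adjusted p = 0.978) with a 95% interval from −0.65 to 2.41. Its cluster neighbours had smaller ranges over the same tumours. Ifit2 ran from 4.19 to 4.96 in NeuNT/H1074R tumours and 4.02 to 5.60 in NeuNT tumours, with NeuNT replicate 3 highest, and differed by −0.09 ± 0.33 (SE). Ifit3 ran from 5.65 to 6.16 in NeuNT/H1074R tumours and 5.49 to 6.01 in NeuNT tumours and differed by 0.12 ± 0.16 (SE). How far each probe reads the close copies of these genes was not tested.

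The oligoadenylate synthetases make the signal that activates RNase L, an enzyme that cuts viral and cellular RNA. All 4 measured genes had NeuNT replicate 1 as their lowest tumour. Oas2 had 5.83, 7.04, 7.91 and 6.42 in NeuNT/H1074R replicates 1 to 4, against 5.63, 7.05, 6.79 and 7.12 in NeuNT replicates 1 to 4, highest in NeuNT/H1074R replicate 3. Its immediate neighbour Oas3 varied less, from 5.81 to 6.16 in NeuNT/H1074R tumours and 5.09 to 6.26 in NeuNT tumours. Of the synthetase-like pair, which lie side by side, Oasl2 had 7.29, 8.89, 8.48 and 8.86 in NeuNT/H1074R tumours and 7.05, 8.09, 9.38 and 8.15 in NeuNT tumours and Oasl1 ran from 6.20 to 6.81 in NeuNT/H1074R tumours and 5.31 to 7.31 in NeuNT tumours. Both were highest in NeuNT replicate 3. The differences of the 4 genes were small, from 0.09 for Oasl1 to 0.27 for Oas3, and none passed (limma, adjusted p from 0.978 to 0.990).

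The dynamin-like GTPases Mx1 and Mx2 trap viral components. Mx2 was at 4.75, 5.78, 5.13 and 5.51 in NeuNT/H1074R replicates 1 to 4, against 3.88, 4.92, 6.28 and 4.73 in NeuNT replicates 1 to 4. NeuNT replicate 3 was highest and NeuNT replicate 1 lowest, and the other 6 tumours lay between them. The difference was 0.34 ± 0.47 (SE; limma, adjusted p = 0.978). Mx1 was left out of the test as dim, with a mean under the limit of 4.06, and read 3.11, 3.91, 4.23 and 4.28 in NeuNT/H1074R tumours and 3.17, 3.73, 5.47 and 3.57 in NeuNT tumours. NeuNT replicate 3 was again highest, and the untested difference was −0.11.

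Among the other type I effectors, Usp18, the protease that removes Isg15 from proteins and damps signalling at the type I receptor, had 6.76, 8.84, 8.49 and 9.04 in NeuNT/H1074R replicates 1 to 4, against 6.30, 7.47, 8.76 and 7.06 in NeuNT replicates 1 to 4. The values fell into a high set (NeuNT/H1074R replicates 2, 3 and 4 and NeuNT replicate 3) and a lower one, as for Ifit1. Its difference of 0.89 ± 0.62 (SE) was the highest positive one of the 36 members and did not pass (limma, adjusted p = 0.978). Isg15, the ubiquitin-like protein itself, had 6.58, 7.35, 7.56 and 7.50 in NeuNT/H1074R tumours and 6.26, 6.93, 7.99 and 6.82 in NeuNT tumours, with a difference of 0.25 ± 0.37 (SE). Rtp4, an interferon-induced chaperone that restrains antiviral responses, had 7.75, 9.62, 8.59 and 9.93 in NeuNT/H1074R tumours and 7.27, 8.79, 9.60 and 8.35 in NeuNT tumours. Its 2 low tumours were again replicate 1 of each genotype, at 7.75 in NeuNT/H1074R and 7.27 in NeuNT, and it differed by 0.47 ± 0.59 (SE).

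Rsad2, which encodes viperin, and Cmpk2, the kinase that supplies its nucleotide substrate, are immediate neighbours among the protein-coding genes. Rsad2 had 5.46, 6.49, 5.75 and 6.14 in NeuNT/H1074R tumours and 4.99, 5.13, 6.52 and 5.27 in NeuNT tumours. Cmpk2 had 5.72, 7.75, 6.87 and 7.25 in NeuNT/H1074R tumours and 5.94, 6.95, 7.37 and 6.62 in NeuNT tumours. NeuNT/H1074R replicate 2 and NeuNT replicate 3 were the highest 2 tumours for both. Xaf1, a factor that promotes apoptosis, differed by 0.29 ± 0.43 (SE) and Bst2, or tetherin, which holds budding virus at the cell surface, by 0.40 ± 0.38 (SE). Ifi35 and the exonuclease gene Isg20 varied less than most of the role, with differences of 0.08 ± 0.21 and −0.06 ± 0.16 (SE). Isg20 was the only member of this role that was highest in NeuNT/H1074R replicate 1, at 7.92. No gene of this role passed (limma, adjusted p from 0.978 to 0.988).

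**Figure D3:**
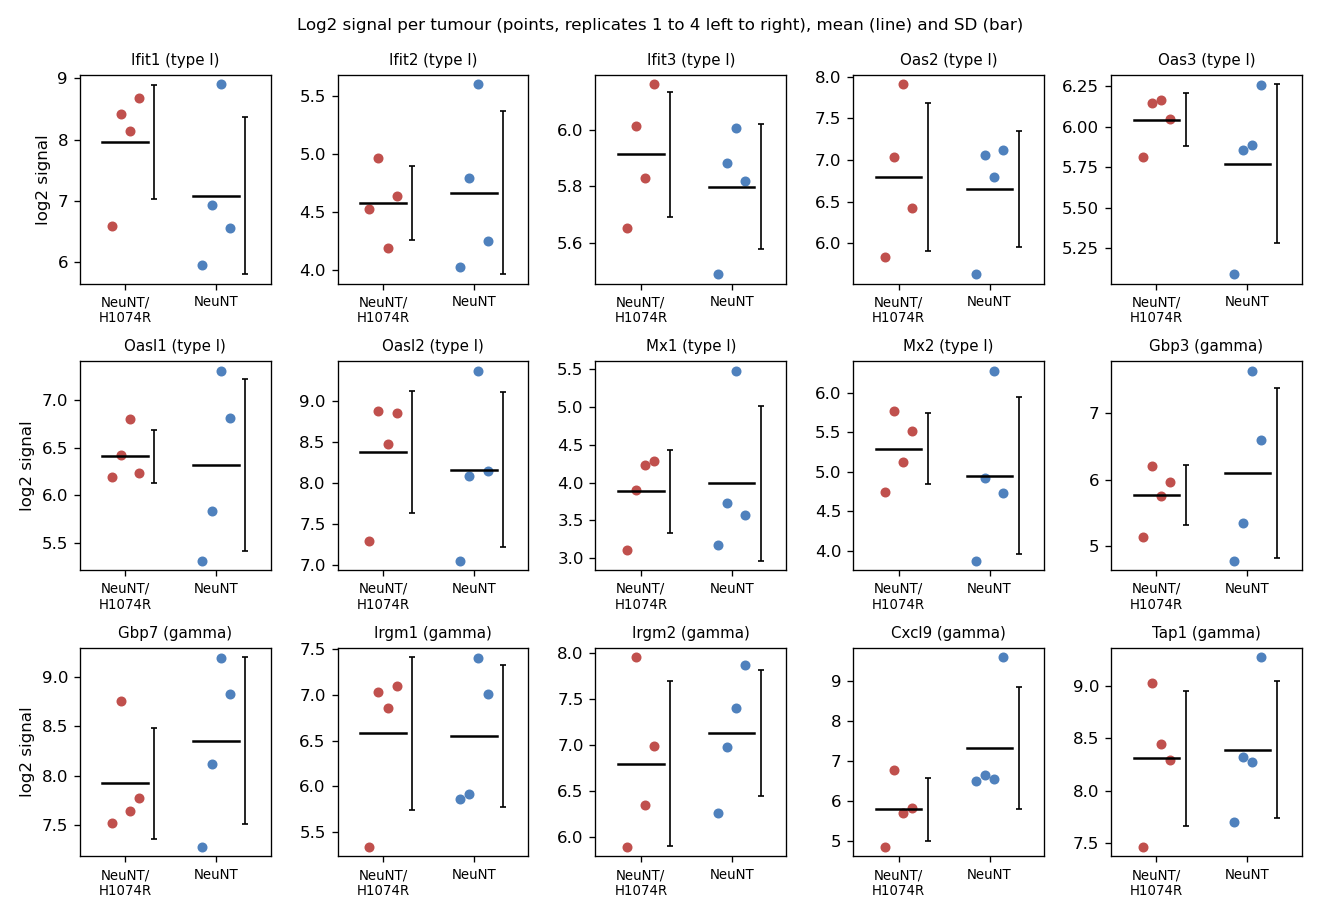
Log2 signal (y axis, own scale per gene) of the 9 measured genes of the type I class and the 6 of the interferon gamma class (marked gamma) in each tumour; points are tumours in order of replicate, lines means and bars SD. NeuNT replicate 3 is highest in 6 of the 9 type I genes and in 3 of the 6 interferon gamma genes, and NeuNT replicate 4 in 1 of 9 and 2 of 6.

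Genes known from interferon gamma were split over the tumour that was highest. In the class of 6, NeuNT replicate 3 was highest for Gbp3, Gbp7 and Irgm1, NeuNT replicate 4 for Cxcl9 and Tap1, and NeuNT/H1074R replicate 2 for Irgm2. Cxcl9, the chemokine that draws activated T cells through Cxcr3, had 4.84, 6.78, 5.69 and 5.81 in NeuNT/H1074R replicates 1 to 4, against 6.49, 6.64, 6.54 and 9.59 in NeuNT replicates 1 to 4. NeuNT replicate 4 stood far above the other 3 NeuNT tumours, and NeuNT/H1074R replicate 2 was above all of those, so the genotypes overlapped. Means were 5.78 ± 0.79 in NeuNT/H1074R and 7.32 ± 1.52 in NeuNT tumours (SD, n = 4 each), a difference of −1.53 ± 0.72 (SE; limma, adjusted p = 0.978), with a 95% interval from −3.19 to 0.12. The difference was −0.78 without NeuNT replicate 4. Cxcl10, a ligand of the same receptor that answers to both interferon types, had 4.48, 5.32, 4.43 and 4.65 in NeuNT/H1074R replicates 1 to 4, against 4.61, 5.76, 6.44 and 6.48 in NeuNT replicates 1 to 4. NeuNT replicates 2, 3 and 4 lay above every NeuNT/H1074R tumour and NeuNT replicate 1 lay among them. Its difference of −1.10 ± 0.41 (SE) had the smallest unadjusted p of the members, 0.027, and did not pass (limma, adjusted p = 0.978). Another ligand of this receptor, Cxcl11, was named after its values were seen: it read 4.49, 4.49, 4.29 and 4.48 in NeuNT/H1074R tumours and 4.44, 4.12, 8.25 and 5.74 in NeuNT tumours, so Cxcl11 was highest in NeuNT replicate 3, and Cxcl9 and Cxcl10 in NeuNT replicate 4.

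The immunity-related GTPases act on the membranes of vacuoles that hold intracellular parasites. Iigp1 had 6.36, 8.79, 6.43 and 6.94 in NeuNT/H1074R replicates 1 to 4, against 6.81, 8.91, 7.63 and 9.87 in NeuNT replicates 1 to 4. NeuNT replicates 4 and 2 and NeuNT/H1074R replicate 2 were high, NeuNT replicate 3 was intermediate and the remaining 4 tumours were low. Its difference was −1.17 ± 0.75 (SE; limma, adjusted p = 0.978). Igtp (Irgm3) had 6.22, 8.41, 6.35 and 7.55 in NeuNT/H1074R replicates 1 to 4, against 6.04, 7.70, 7.92 and 9.16 in NeuNT replicates 1 to 4, and its difference was −0.57 ± 0.70 (SE). Irgm2, its neighbour with the shared promoter run shown above, had 5.89, 7.96, 6.35 and 6.99 in NeuNT/H1074R tumours and 6.26, 6.98, 7.41 and 7.87 in NeuNT tumours and differed by −0.33 ± 0.48 (SE). The same 3 tumours, NeuNT/H1074R replicate 2 and NeuNT replicates 3 and 4, were on top in both genes. Irgm1, which lies elsewhere on the same chromosome, kept a different order: 5.34, 7.04, 6.85 and 7.10 in NeuNT/H1074R tumours and 5.86, 5.92, 7.41 and 7.02 in NeuNT tumours, with NeuNT replicate 3 highest. None of the 4 passed (limma, adjusted p from 0.978 to 0.998).

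The guanylate-binding proteins, large GTPases that attack pathogen vacuoles and activate inflammasomes, are textbook targets of interferon gamma. Gbp3 had 5.15, 6.20, 5.75 and 5.96 in NeuNT/H1074R replicates 1 to 4, against 4.79, 5.36, 7.63 and 6.59 in NeuNT replicates 1 to 4. Gbp7, beside it in the genome, had 7.53, 8.75, 7.65 and 7.77 in NeuNT/H1074R tumours and 7.28, 8.12, 9.19 and 8.83 in NeuNT tumours. In both, NeuNT replicate 3 was highest and NeuNT replicate 1 lowest, as in most genes of the type I class, and NeuNT replicate 4 was second. That order did not hold for the family. Among the Gbp genes outside the members, named after their values were seen, Gbp4, Gbp5, Gbp6 and Gbp8 were highest in NeuNT replicate 4. Gbp9 was highest in NeuNT replicate 3. Gbp8 read 5.79 in NeuNT replicate 3 and 7.47 in NeuNT replicate 4, and Gbp4 and Gbp6 were too dim for the test. The differences of Gbp3 and Gbp7 were −0.33 ± 0.57 and −0.43 ± 0.43 (SE; limma, adjusted p = 0.980 and 0.978).

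Antigen processing genes sit together in the major histocompatibility complex, and Psmb9, Tap1 and Psmb8 are neighbours with no other annotated protein-coding gene between them. Psmb8 and Psmb9 encode subunits of the immunoproteasome and Tap1 one chain of the transporter that carries peptides to class I molecules. Tap1 had 7.47, 9.02, 8.45 and 8.29 in NeuNT/H1074R replicates 1 to 4, against 7.70, 8.32, 8.28 and 9.27 in NeuNT replicates 1 to 4. Psmb9 had 6.38, 8.20, 7.11 and 7.56 in NeuNT/H1074R tumours and 6.80, 7.95, 7.11 and 8.26 in NeuNT tumours, and Psmb8 ran from 7.82 to 9.10 in NeuNT/H1074R tumours and 7.93 to 9.31 in NeuNT tumours. All 3 were highest in NeuNT replicate 4 and lowest in NeuNT/H1074R replicate 1. The genotype differences were −0.06 ± 0.36, −0.21 ± 0.44 and −0.08 ± 0.40 (SE) for Psmb8, Psmb9 and Tap1 (limma, adjusted p from 0.986 to 0.993).

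The classes were set against each other as the mean, over the genes of a class, of each gene's log2 signal minus its mean over the 8 tumours. No test was made of these values, because their genes had been chosen with earlier results known. The type I class stood at −0.51, 0.36, 0.28 and 0.28 in NeuNT/H1074R replicates 1 to 4 and at −0.97, −0.14, 0.81 and −0.12 in NeuNT replicates 1 to 4. Both the highest and the lowest tumour were NeuNT tumours. The means were 0.10 ± 0.41 in NeuNT/H1074R and −0.10 ± 0.73 in NeuNT tumours (SD, n = 4 each). Their difference of 0.21 turned to −0.08 without NeuNT replicate 1 and was 0.51 without NeuNT replicate 3. The interferon gamma class stood at −1.05, 0.54, −0.29 and −0.10 in NeuNT/H1074R replicates 1 to 4 and at −0.69, −0.20, 0.66 and 1.11 in NeuNT replicates 1 to 4. Here NeuNT replicate 4 was highest and NeuNT/H1074R replicate 1 lowest. The means were −0.22 ± 0.66 in NeuNT/H1074R and 0.22 ± 0.81 in NeuNT tumours (SD, n = 4 each), a difference of −0.45. Leaving out NeuNT/H1074R replicate 1 gave −0.17, leaving out NeuNT replicate 4 gave −0.15, and −0.75 remained when NeuNT replicate 1 was dropped.

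**Figure D4:**
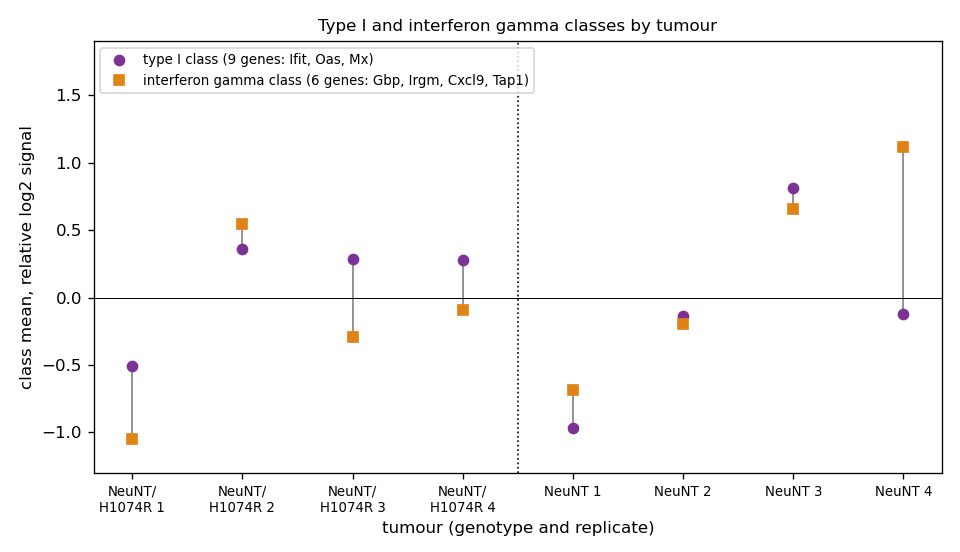
Mean relative log2 signal (y axis) of the type I class (circles, 9 genes) and the interferon gamma class (squares, 6 genes) in each tumour, joined by a line within the tumour. The widest gap, in NeuNT replicate 4, had the interferon gamma class at 1.11 and the type I class at −0.12.

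Within a tumour, the type I class minus the interferon gamma class came to 0.54, −0.18, 0.58 and 0.37 in NeuNT/H1074R replicates 1 to 4 and to −0.28, 0.06, 0.15 and −1.23 in NeuNT replicates 1 to 4. The type I class was thus relatively the higher one in 3 of 4 NeuNT/H1074R tumours and in 2 of 4 NeuNT tumours, and NeuNT/H1074R replicate 2 lay among the NeuNT tumours. Means were 0.33 ± 0.35 in NeuNT/H1074R and −0.33 ± 0.63 in NeuNT tumours (SD, n = 4 each). The difference between genotypes, 0.65, stayed between 0.35 and 0.82 when single tumours were left out, and the lowest of these values was the one without NeuNT replicate 4. Between the 2 NeuNT tumours with the most high genes, NeuNT replicate 3 exceeded NeuNT replicate 4 in 7 of 9 genes of the type I class, with a median log2 difference of 1.23, and in 3 of 6 genes of the interferon gamma class, with a median of −0.05. When the classes were widened with other members of each kind, to 19 and 12 genes, the counts were 16 of 19 (all but Oas2, Oas3 and Isg20) and 3 of 12 (Gbp3, Gbp7 and Irgm1). The widened interferon gamma class took in Cxcl10, which answers to both interferon types. Within NeuNT/H1074R, replicate 2 exceeded replicate 3 in 5 of 9 type I and 6 of 6 interferon gamma genes. In the widened classes it did so in 11 of 19 and 12 of 12 genes. The mean of the type I class was thus near even between replicates 2 and 3, at 0.36 and 0.28, but its families ran in opposite directions. All 3 Ifit genes were higher in replicate 2, and 3 of 4 oligoadenylate synthetases were higher in replicate 3. The widened type I class stood at 0.45 and 0.24. The interferon gamma class stood at 0.54 and −0.29, and the widened one at 0.57 and −0.48. Neither the counts nor the class values have a test.

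The ligand and receptor genes of the pathway did not pass the test either. Ifng, the gene of interferon gamma, was flat and dim, from 4.38 to 4.55 in NeuNT/H1074R tumours and 4.35 to 4.54 in NeuNT tumours, little above the limit of 4.06, with a difference of 0.04 ± 0.09 (SE; limma, adjusted p = 0.987). Ifnb1, interferon beta, lay under that limit in all 8 tumours, with highest values of 3.38 in NeuNT/H1074R and 3.22 in NeuNT tumours. Of 13 ligand genes listed, 11 had a probe of their own and 5 passed the filter, all 5 with higher means in NeuNT/H1074R tumours and none past the threshold. Of these, Ifnl3, an interferon lambda, did not overlap between the genotypes, as was so for 2.69% of all tested genes. It read 5.63, 5.82, 5.47 and 6.08 in NeuNT/H1074R tumours and 5.45, 5.41, 5.46 and 5.32 in NeuNT tumours. The gap was narrow, from 5.458 as the highest NeuNT value to 5.475 as the lowest NeuNT/H1074R value. Ifnl3 differed by 0.35 ± 0.15 (SE), with a limma adjusted p of 0.978, and by 0.235 without NeuNT/H1074R replicate 4. Ifna1 and Ifnl2 differed by 0.24 ± 0.16 and 0.12 ± 0.12 (SE). Ifnl3, Ifna1 and Ifnl2 were each highest in NeuNT/H1074R replicate 4, but spanned only 0.77, 0.80 and 0.40 log2 units over the 8 tumours. The 6 receptor genes passed the filter, 5 with lower and 1 with a higher mean in NeuNT/H1074R tumours and none past the threshold. The type I receptor genes Ifnar1 and Ifnar2 differed by −0.23 ± 0.17 and −0.15 ± 0.20 (SE), and the interferon gamma receptor genes Ifngr1 and Ifngr2 by −0.13 ± 0.20 and −0.39 ± 0.19 (SE). In NeuNT replicate 1, low for most targets, they stood at 9.12, 9.15, 9.08 and 8.85, inside the range of the other tumours.

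None of the 10 signalling and restraint genes measured passed the threshold, 6 with a higher and 4 with a lower mean. They included the kinase gene Jak2 (0.17 ± 0.13 SE), the phosphatase gene Ptpn2 (0.23 ± 0.24 SE) and Irf8, a factor of myeloid cells (−0.34 ± 0.19 SE). Among 15 nucleic acid sensing genes, 7 had a higher and 8 a lower mean and 0 passed, with Dhx58, a helicase related to RIG-I and itself induced by interferon, at 0.51 ± 0.30 (SE), Cgas, the sensor of cytosolic DNA, at −0.32 ± 0.18 (SE) and Irf3, the factor it activates, at −0.27 ± 0.15 (SE). Among 9 class I presentation genes beyond the members, 6 had higher and 3 lower means and 0 passed, including the loading chaperone Tapbp (−0.21 ± 0.26 SE), the immunoproteasome subunit Psmb10 (0.16 ± 0.26 SE) and the proteasome activator Psme2 (−0.21 ± 0.14 SE). Of 30 further interferon-induced genes tested, 15 had higher and 15 lower means and 0 passed. The 3 of smallest unadjusted p were Phf11d (0.71 ± 0.28 SE), Ifi205, a member of the DNA-binding Ifi200 family (−1.21 ± 0.53 SE), and Ifi27 (0.48 ± 0.24 SE), each with a limma adjusted p of 0.978.

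Markers of the cells that make or answer interferon also differed between tumours. The mean of the 9 luminal markers of mammary epithelium ran from 9.46 to 10.10 in NeuNT/H1074R tumours and 9.58 to 9.75 in NeuNT tumours. Among them Krt8 ran from 10.19 to 10.89 in NeuNT/H1074R tumours and 9.78 to 10.55 in NeuNT tumours, while Krt19 varied widely, from 7.51 to 11.52 in NeuNT/H1074R tumours and 5.37 to 10.95 in NeuNT tumours. In bulk tumour RNA, fewer cells of a type and less RNA per cell cannot be told apart. Of 14 T and NK cell markers, 13 had a probe and the natural killer genes Ncr1, Klrb1c and Klrk1 and the granzyme gene Gzma lay under the filter limit. The list mean ran from 4.47 to 5.17 in NeuNT/H1074R tumours and 4.59 to 5.61 in NeuNT tumours. NeuNT replicate 4, with the highest interferon gamma class mean, was highest in this list too, and in 7 of its 13 genes. Cd3e, a part of the T cell receptor complex, reached 7.05 in NeuNT/H1074R replicate 2 and was highest in NeuNT replicates 2 and 4, at 8.10 and 8.57. Cd8a, the co-receptor of cytotoxic T cells, had 4.92, 4.89, 4.22 and 4.97 in NeuNT/H1074R tumours and 4.86, 4.97, 4.57 and 6.63 in NeuNT tumours. Other genes of the list had another order: Gzmb, a granzyme, had 5.12, 5.94, 3.90 and 4.89 in NeuNT/H1074R tumours and 4.27, 5.41, 4.11 and 4.21 in NeuNT tumours, Cd4 was highest in NeuNT replicate 2 and Cd3d in NeuNT replicate 1. NeuNT replicate 3, with the highest type I class mean, had a list mean of 4.59 and an interferon gamma class value of 0.66. NeuNT replicate 2 had a list mean of 5.21 and an interferon gamma class value of −0.20. For NeuNT/H1074R replicate 2 these were 5.17 and 0.54. NeuNT/H1074R replicate 3, with the lowest list mean of all, had a type I class value of 0.28 and an interferon gamma class value of −0.29.

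All 13 macrophage and monocyte markers had lower means in NeuNT/H1074R tumours and 0 passed, with list means from 7.56 to 8.65 in NeuNT/H1074R tumours and 8.10 to 8.88 in NeuNT tumours. NeuNT/H1074R replicate 1, low in both interferon classes, had the highest macrophage mean of its genotype, barely above replicate 2 (8.64), which was high in both. NeuNT/H1074R replicates 3 and 4, high in the type I class, had the 2 lowest of all 8 tumours. In NeuNT tumours the order was another: replicate 3, highest in the type I class, had the highest macrophage mean of all, 8.88. NeuNT replicate 1, lowest in the type I class, had the lowest of its genotype, 8.10. Siglech, a marker of plasmacytoid dendritic cells, which are rich sources of interferon alpha, was dim throughout, from 4.46 to 4.79 in NeuNT/H1074R tumours and 4.75 to 5.13 in NeuNT tumours. Skeletal muscle markers had a mean of 7.24 and 6.88 in NeuNT/H1074R replicates 1 and 3 and from 4.83 to 5.23 in the other 6 tumours. Without these 2 tumours the interferon gamma class difference was 0.00, the type I class difference 0.42 and the contrast between classes 0.42. The differences of Igtp, Irgm2, Psmb8, Psmb9 and Tap1 were then above 0, from 0.27 for Tap1 to 0.35 for Psmb9, and none passed. Other marker lists also moved with single tumours. Relative to the mean over the 8 tumours, the neutrophil list was at 1.91 in NeuNT replicate 4, its highest, and the B cell and dendritic cell lists were highest there at 0.45 and 0.13, while the fibroblast list was lowest there at −0.62. NeuNT replicate 1, lowest for most members, was highest in the adipocyte list, at 0.99. The basal epithelium list was highest in NeuNT/H1074R replicates 1 and 3, at 1.59 and 1.53, with NeuNT replicate 4 next at 1.20. The part of any of these cell types in the interferon results was not tested.

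**Figure D5:**
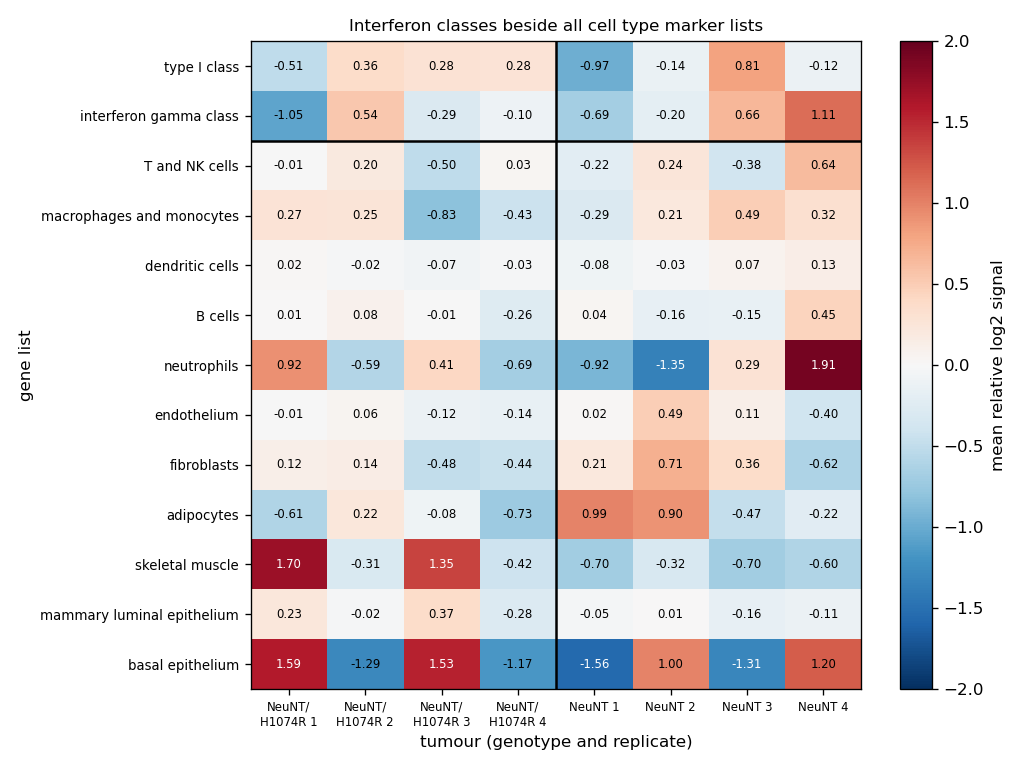
Mean relative log2 signal (colour and printed value; 0 is the mean over the 8 tumours) of both interferon classes and of all 11 cell type marker lists (rows) in each tumour (columns). NeuNT replicate 4 is highest in the interferon gamma class and in the T and NK, dendritic, B cell and neutrophil lists, and NeuNT/H1074R replicates 1 and 3 are high in the muscle and basal lists.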

How the data were processed

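RNA from 8 mouse mammary tumours was hybridised to Affymetrix arrays. The deposited values are log2 signals, 1 per probe and tumour, made by the authors with Affymetrix Expression Console and Transcriptome Analysis Console, per the submitters' processing notes; the settings and the normalization method are, in the sources used here, not given. They ran from 0.887 to 13.636, with medians from 4.815 to 4.874 per tumour. No further normalization was applied. The precision is limited by the number of arrays.

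Of 41345 probes, 23521 were listed with 1 gene symbol, 1814 with several and 16010 were not listed. Each of the resulting 22180 genes was read by its single-symbol probe of highest mean, for 1082 genes out of several. The lowest 25% by mean (log2 under 4.063) were left out of the test. Genotypes were compared by limma 3.58.1 (lmFit, and eBayes with an intensity trend, in R 4.3.3), two-sided, with Benjamini-Hochberg adjustment over 16635 genes and a threshold of 0.05. The fit was tested on simulated data. Class means have no test. Promoter windows came from RefSeq (GRCm38.p6) tables. Tables were handled with pandas 2.3.3 and drawn with matplotlib 3.10.9.

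All members could be named. From the lists of ligands, receptors, signalling, sensing, class I presentation and further interferon-induced genes, Ifng, Ifnb1 and the 4 receptor genes were always named, with up to 3 genes per list of smallest unadjusted p, and from the marker lists only genes set beside a result; a gene of these lists is not reported here. The members, the lists and the leaving out of NeuNT/H1074R replicates 1 and 3 together were chosen with earlier results of these data known. Cxcl11 and the Gbp genes outside the members were named after their values were seen. They are not among the named genes counted over the alternatives. Alternatives were other normalizations, filters, probe rules, variance models and class definitions, and leaving out tumours.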

Additional observations from a re-analysis of the deposited data

Results flagged for a closer look

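Cxcl9 read 9.59 in NeuNT replicate 4, against 6.49 to 6.64 in the other 3 NeuNT tumours, a gap far larger than the spread among those. For Irgm1, NeuNT/H1074R replicate 1 read 5.34, and its 3 fellow tumours 6.85 to 7.10. The same tumour had a type I class mean of −0.51, and the remaining NeuNT/H1074R tumours 0.28 to 0.36. Each was picked out because 1 tumour lay far from the rest of its group (Dixon's criterion for 4 samples), which happened in 3 of 78 groups of values. Chance alone picks out about 1 in 20 such groups.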

How the results depend on the processing

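No gene and no member passed the adjusted threshold (limma) under any alternative run, and the smallest adjusted p of a named gene over all of them was 0.726. The ordinary two-sample test, run over all genes, also had 0 genes called, with 714 genes at an unadjusted p under 0.05. At that unadjusted level limma had 1 member, and from 0 to 5 when single tumours were left out, the 5 being without NeuNT replicate 3. Changing the filter on dim genes or dropping the intensity trend cannot alter a difference, nor can averaging probes for a gene with 1 probe. Of 904 recomputed differences of 57 named genes, these included, 848 kept their sign. The other 56 belonged to 23 genes, all with a difference no larger than 0.57 in size. With quantile normalization Stat2 was 0.029. With array weights Stat2 was 0.14, Ifit2 0.057, Psmb8 0.10, Psmb9 0.021 and Tap1 0.070. Without both NeuNT/H1074R tumours with high muscle genes, Stat2 was 0.41, Irf1 0.031, Ifit2 0.13, Mx1 0.11, Igtp 0.27, Irgm2 0.34, Psmb8 0.34, Psmb9 0.35, Tap1 0.27, Ifnar2 0.051 and Tapbp 0.051. When single tumours were left out, the ranges that crossed 0 were −0.17 to 0.20 for Stat2, −0.014 to 0.40 for Irf9, −0.16 to 0.024 for Isg20, −0.30 to 0.23 for Ifit2, −0.17 to 0.082 for Ddx58, −0.22 to 0.47 for Oas2, −0.24 to 0.42 for Oasl1, −0.15 to 0.62 for Oasl2, −0.38 to 0.39 for Mx1, −0.018 to 0.78 for Mx2, −0.046 to 0.22 for Ifi35, −0.76 to 0.19 for Gbp3, −0.11 to 0.57 for Cmpk2, −0.20 to 0.44 for Irgm1, −0.31 to 0.23 for Psmb8, −0.51 to 0.10 for Psmb9, −0.32 to 0.21 for Tap1, −0.26 to 0.014 for Ifnar2 and −0.25 to 0.016 for Ifngr1. The cause was not tested. The contrast between classes was above 0 under every alternative run, with 0.78 for the widened classes. No paired analysis was possible because the labels number the tumours individually, with no number shared by the genotypes; replicates 1 to 4 are names given here in order of deposit.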
